A study of Homo sapiens with 8 samples.

Results

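The aldehyde dehydrogenase gene ALDH1A1, the target of the knockdown, was examined beside 9 of its paralogs in HT29 cells. The 10 genes were ALDH1A1, ALDH1A2, ALDH1A3, ALDH1B1, ALDH2, ALDH3A2, ALDH4A1, ALDH7A1, ALDH9A1 and ALDH18A1. They were found by their symbols in the deposited table, where they held 35 of 84798 transcripts, and values were summed over the transcripts of a gene. They are 10 of 18664 genes, and another 9 ALDH genes of the table served for comparison.

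Aldehyde dehydrogenases use NAD+ or NADP+ to oxidize aldehydes to acids. A cysteine of the active site attacks the aldehyde, and the paralogs differ in substrate and compartment: ALDH1A enzymes make retinoic acid from retinaldehyde in the cytosol, mitochondrial ALDH2 and ALDH1B1 clear acetaldehyde and related compounds, and other members serve the metabolism of fatty aldehydes, lysine, carnitine and proline. In the colon, ALDH1A1 is best known as a marker of stem-like epithelial and cancer cells, which are often sorted by an aldehyde dehydrogenase activity assay to which several paralogs can contribute.

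RNA-seq was performed on total RNA of HT29 cells, an established line from a human colon cancer, under a treatment given as 10% FBS, to ask which transcripts changed when ALDH1A1 was knocked down. The shALDH1A1 group (genotype ALDH1A1 knockdown) and the CTRL group (titled shControl, with the genotype given as WT and called parental in the design) had 4 libraries each. The methods describe stable lines made with lentiviral shRNA vectors, and which of the human shRNAs was sequenced is not stated in the sources used here. The labels do not say that replicates were separate cultures, so p-values measure the spread between these libraries, which may be technical.

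The libraries were unequal. They held 536575 to 1908803 counts in the shALDH1A1 group and 291260 to 4137111 in the CTRL group, with CTRL replicate 2 the shallowest. A set of 30 common genes, used by all cells, took 1.09 to 4.56% of the counts of a CTRL library but 0.026 to 0.154% of those of a shALDH1A1 library. Of 12 markers of colon epithelium, 11 had counts in each group, and together they took 0.00267 to 0.017% of a shALDH1A1 library and 0.0144 to 0.133% of a CTRL library. Of the transcription factors that define intestinal epithelium, CDX1 was at 0 in all shALDH1A1 libraries and CDX2 at 0 in all CTRL libraries, with 1 count of CDX1 in each of 2 CTRL libraries and 3 counts of CDX2 in 1 shALDH1A1 library. Markers of stomach chief cells, which have no place in a colon line, made up 3.2 to 36.2% of a CTRL library and up to 0.00505% of a shALDH1A1 library. Parietal cell markers took 0.125 to 0.797% and up to 0.000476%, and their defining genes ATP4A and ATP4B were at 0 in all shALDH1A1 libraries. Leukocyte markers took 0.0518 to 0.190% in CTRL libraries against 0.000524 to 0.00244% in shALDH1A1 libraries. Smooth muscle markers overlapped between the groups, reaching 2.64% in CTRL replicate 1. MTRNR2L genes, which resemble mitochondrial ribosomal RNA, held 14.6, 0.233, 9.34 and 50.4% of CTRL replicates 1 to 4 and at most 0.183% of a shALDH1A1 library. The part of these RNAs in the results on the ALDH genes was not tested, and in bulk samples fewer cells of a type and less RNA per cell cannot be told apart. CTRL replicate 2 also stood apart in its composition: genes whose transcript carries 7SL-like sequence (described with the last comparison) took 74.3% of its counts, as compared with 82.8 to 88.5% for shALDH1A1 and 17.9 to 29.7% for the other CTRL libraries. Its chief cell markers (3.2%), parietal cell markers (0.125%) and common genes (1.09%) were the lowest among the CTRL libraries but above every shALDH1A1 library.

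Of the 10 genes, 9 hold the active-site cysteine in a motif that could be found. The stretch of the coding sequence around the catalytic cysteine is shown for ALDH1A1 and for the members the results turn on, with the cysteine codon in capitals. All were read from transcripts of the GRCh37 annotation, 5′ to 3′.
ALDH1A1: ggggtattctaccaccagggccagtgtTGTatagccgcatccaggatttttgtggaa
ALDH1A2: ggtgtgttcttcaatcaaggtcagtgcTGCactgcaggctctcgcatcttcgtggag
ALDH1A3: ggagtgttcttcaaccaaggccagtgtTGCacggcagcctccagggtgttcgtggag
ALDH2: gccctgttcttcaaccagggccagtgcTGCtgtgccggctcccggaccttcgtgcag
ALDH1B1: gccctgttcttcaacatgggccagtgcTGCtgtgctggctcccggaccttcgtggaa
ALDH3A2: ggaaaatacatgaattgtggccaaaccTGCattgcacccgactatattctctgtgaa
ALDH4A1: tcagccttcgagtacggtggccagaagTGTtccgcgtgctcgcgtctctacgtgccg
Of the 57 bases, ALDH1A3 shares 43 with ALDH1A1, ALDH2 shares 38, ALDH1A2 and ALDH1B1 share 37, and ALDH3A2 and ALDH4A1 share 26. ALDH9A1 shares 28 and ALDH7A1 shares 24. The cysteine was found in the translated coding sequence as the last residue of the motif glycine, glutamine, any residue, cysteine, and this motif was not found in ALDH18A1. Over the aligned bases of the coding sequence, with gaps left out, identity to ALDH1A1 was 72.1% for ALDH1A2, 69.5% for ALDH1A3, 67.3% for ALDH2 and 66.5% for ALDH1B1. It was 60.4 to 64.2% for ALDH3A2, ALDH4A1, ALDH7A1 and ALDH9A1. ALDH18A1 reached 67.8%, but over 1474 aligned bases of a coding sequence of 2388 bases. These values therefore do not rank the members by relatedness. The longest stretch that ALDH1A1 shares without a mismatch is 23 bases with ALDH1A2, shown as the place where the target and a paralog are most alike.
ALDH1A1 and ALDH1A2: ggattcaagatgtctggaaatgg
The longest shared stretch was 20 bases with ALDH1A3 and with ALDH2, 17 with ALDH1B1, and 11 to 13 with the other members.

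ALDH1A1 was nearly absent from the shALDH1A1 libraries. The gene lies on the minus strand of chromosome 9 (GRCh37, 75515587 to 75695358) and has 13 exons in its coding transcript. Its counts were 3, 1, 1 and 0 for shALDH1A1 (replicates 1 to 4, the order of all values that follow) and 1858, 83, 1870 and 1000 for CTRL. As TPM, a level scaled by transcript length and by library, it stood at 3.58, 1.61, 1.32 and 0 in the shALDH1A1 libraries and at 493, 427, 329 and 320 in the CTRL libraries. The groups did not overlap, and CTRL replicate 2, whose share of genes with 7SL-like sequence was nearer to the shALDH1A1 libraries, kept ALDH1A1 at the level of the other CTRL libraries. The means were 1.63 ± 1.48 and 392 ± 83.0 TPM (SD, n = 4 each). By TPM, ALDH1A1 ranked 170th to 374th among the genes of a CTRL library and 3651st to 8946th in the shALDH1A1 libraries in which it was present.

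The fold change of ALDH1A1 was then fitted with all other genes. Here TMM factors set the library scale, and a gene was called at an adjusted p under 0.05. ALDH1A1 fell by 7.76 on the log2 scale (SE 1.61, adjusted p = 0.00086 by edgeR's quasi-likelihood test). The counts of CTRL exceeded those of shALDH1A1 by 220 times on this scale (95% counting interval 94 to 677). On a second scale, called the common-gene scale, where the 30 common genes stood for library size, ALDH1A1 fell by 4.22 (SE 1.41, adjusted p = 0.0179 by edgeR's quasi-likelihood test) and the excess was 26.3 times (95% counting interval 11.2 to 80.9). The call held in 18 of 18 alternatives. The scale matters for every gene of these libraries, since the median over all 7971 tested genes was -1.44 with TMM factors and 1.78 with the common genes. PCR reads were counted without molecular identifiers, and the intervals and floors therefore hold no more than counting error.

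**Figure D1:**
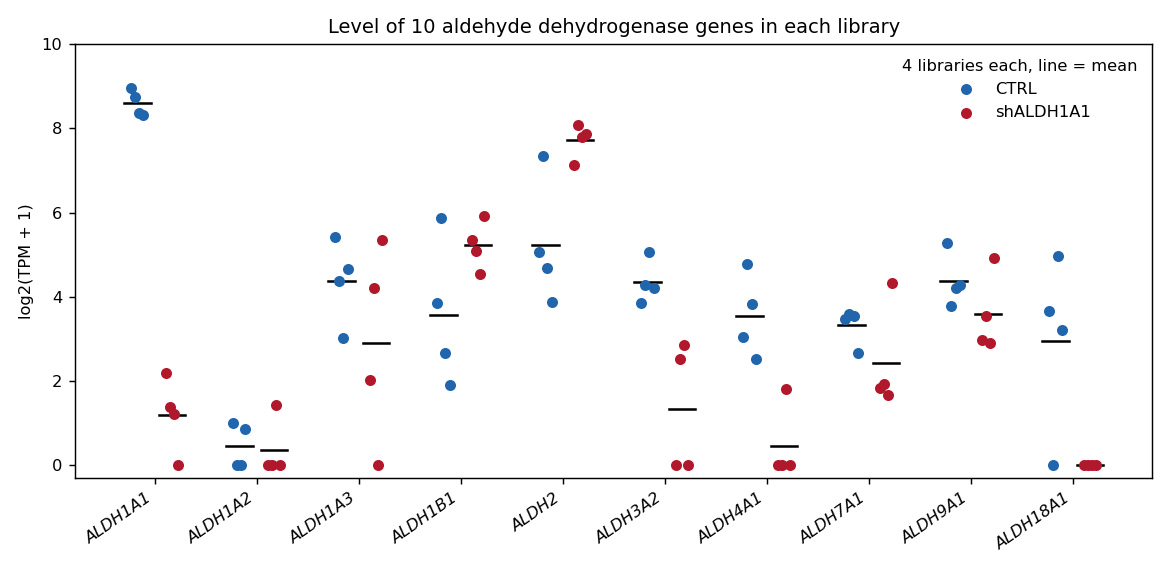
Level of the 10 genes in each library, as log2(TPM + 1) on the vertical axis, with 1 point per library, CTRL in blue, shALDH1A1 in red and the group mean as a line. ALDH1A1, ALDH3A2 and ALDH4A1 do not overlap between the groups, while ALDH2 overlaps through CTRL replicate 2 alone.

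The make-up of the family's RNA differed between the groups. ALDH1A1 held 56.7, 29.5, 50.8 and 61.4% of the summed counts of the 10 genes in CTRL replicates 1 to 4. In shALDH1A1 replicates 1 to 3 it held 0.47, 0.114 and 0.115%, and in replicate 4 it had 0 of 309 counts, which allows a share of up to 0.971%. The share does not depend on the library scale, and its groups did not overlap (difference of means -49.4 percentage points, p = 0.0286 by an exact two-sided permutation test, which cannot go lower with 4 against 4 libraries). ALDH2, the mitochondrial enzyme that oxidizes acetaldehyde, took 89.4, 92.6, 94.3 and 83.2% of the family's counts in the shALDH1A1 libraries. In the CTRL libraries ALDH2 took 18.7, 54.5, 19.3 and 13.1% (exact two-sided permutation test, p = 0.0286). Per transcript length, ALDH2 made up 61 to 83.7% of the family's TPM with the knockdown and 3.27 to 21.9% without it. A share of ALDH2 must grow where ALDH1A1 is lost, so the levels of the paralogs themselves are given next.

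**Figure D2:**
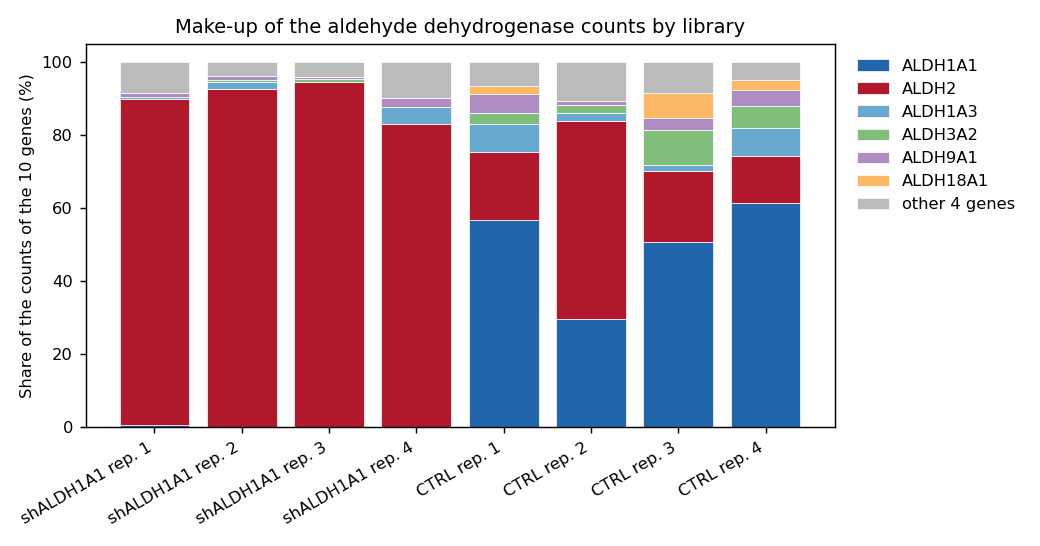
Share of each gene in the summed counts of the 10 genes, in percent, with 1 stacked bar per library. ALDH1A1 (blue) makes up 29.5 to 61.4% in the CTRL libraries and at most 0.47% in the shALDH1A1 libraries, where ALDH2 (dark red) makes up 83.2 to 94.3%.

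The summed level of the 10 genes was lower in shALDH1A1 cells, and that of the 9 paralogs overlapped between the groups through CTRL replicate 2 alone. All 10 together reached 195 to 378 TPM in the shALDH1A1 libraries and 415 to 734 TPM in the CTRL libraries (exact two-sided permutation test, p = 0.0286). The 9 paralogs summed to 192, 336, 261 and 378 TPM for shALDH1A1 and to 169, 307, 141 and 95.8 TPM for CTRL (exact two-sided permutation test, p = 0.114). The 8 paralogs other than ALDH2 summed to 41.3 to 147 TPM and 82.2 to 146 TPM (exact two-sided permutation test, p = 0.2). Without CTRL replicate 2, a comparison chosen after seeing the data, the 9-paralog sum of every shALDH1A1 library lay above the 95.8 to 169 TPM of the remaining CTRL libraries (difference of means 156 TPM, p = 0.0571 by an exact two-sided permutation test). The 8-paralog sum still overlapped (difference -34.2 TPM, p = 0.314 by the same exact test).

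Of the 9 paralogs, ALDH4A1 alone passed the test with TMM factors. Counting ALDH1A1, 8 of the 10 genes had enough counts to be tested, of which 2 fell, where 33.0% of all tested genes fell. None of the 8 rose by edgeR's quasi-likelihood test (0 at an unadjusted p under 0.05, 1 with DESeq2, 0 with limma), where 2.6% of all tested genes rose. The median log2 fold change of the 8 genes was -1.49, close to the -1.44 of all tested genes. With the common genes as scale, 1 of the 8 fell, where 5.32% of all tested genes fell. On that scale 2 rose, where 40.8% of all tested genes rose, and the median was 2.28 against 1.78 for all tested genes. Without CTRL replicate 2, with TMM factors, 9 members were tested, of which 7 fell and 1, ALDH2, rose by edgeR's quasi-likelihood test, where 60.4% of 9925 tested genes fell and 17.3% rose. The median log2 fold change of those 9925 genes was -2.82. Of the 9 members that averaged 1 TPM or more, 3 had all shALDH1A1 values below all CTRL values, as had 26.5% of 13997 genes. The reverse was found for 0 members and for 5.61% of genes. The filters on low values let genes pass on their CTRL counts alone, so these counts are a description.

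**Figure D3:**
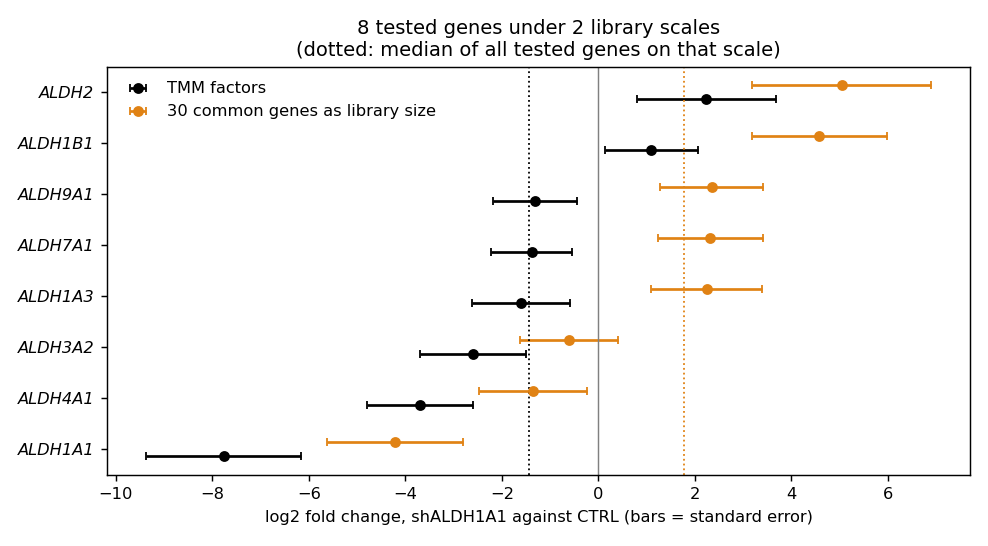
log2 fold change of the 8 tested genes (horizontal axis, shALDH1A1 against CTRL, bars are standard errors) with TMM factors in black and with 30 common genes as library size in orange. The dotted lines mark the median of all tested genes on each scale, -1.44 and 1.78, and ALDH1A1 lies furthest below both.

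The other retinaldehyde dehydrogenases stood far below the CTRL level of ALDH1A1 in both groups. ALDH1A2, on chromosome 15 (minus strand, GRCh37, 58245622 to 58790065), makes retinoic acid in the embryo. Its counts were 0, 0, 2 and 0 for shALDH1A1 and 6, 0, 0 and 4 for CTRL, too few to be tested. CTRL stood at 1.14 times shALDH1A1 with TMM factors (95% counting interval 0.243 to 10.7), so no difference was detectable at this depth. ALDH1A3, on the plus strand of the same chromosome (101417919 to 101456831), is the second enzyme of this kind linked to aldehyde dehydrogenase activity in tumors. Its TPM was 3.07, 17.6, 0 and 39.7 in the shALDH1A1 libraries and 41.7, 19.8, 7.06 and 24.3 in the CTRL libraries. These ranges overlapped, and the log2 fold change of -1.60 did not pass (SE 1.02, adjusted p = 0.191 by edgeR's quasi-likelihood test). It was 2.24 on the common-gene scale (adjusted p = 0.105 by edgeR's quasi-likelihood test), so its sign turned with the scale and no direction can be given for ALDH1A3. It passed as lower in 4 of 18 alternatives, among them DESeq2 (log2 fold change -2.63, adjusted p = 0.0288 by DESeq2). The median of all tested genes with DESeq2 was -2.20. Without CTRL replicate 2 ALDH1A3 fell by 2.35 with TMM factors (adjusted p = 0.0202 by edgeR's quasi-likelihood test). This was less than the fall of the median of all tested genes in that setting, -2.82. In the CTRL libraries, ALDH1A1 exceeded ALDH1A3 in TPM by 11.8, 21.5, 46.6 and 13.2 times in replicates 1 to 4.

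ALDH2 and ALDH1B1, both mitochondrial, were the members whose mean TPM was higher in shALDH1A1 cells. ALDH4A1, also mitochondrial, had a lower mean there (0.635 against 12.9 TPM, on 3 counts in the shALDH1A1 group). The part of location was not tested. ALDH2, on the plus strand of chromosome 12 (GRCh37, 112204691 to 112255336), had 571, 814, 819 and 257 counts with the knockdown and 611, 153, 709 and 213 without it. Its TPM was 139, 267, 219 and 230 in the shALDH1A1 libraries and 32.4, 160, 24.8 and 13.6 in the CTRL libraries. The groups overlapped through CTRL replicate 2 alone. The means were 214 ± 54.0 and 57.8 ± 68.8 TPM (SD, n = 4 each; exact two-sided permutation test of log2(TPM + 1), p = 0.0571), and the log2 fold change of 2.24 did not pass (SE 1.44, adjusted p = 0.196 by edgeR's quasi-likelihood test). ALDH2 passed as higher in 3 of 18 alternatives. With DESeq2 on all 8 libraries its log2 fold change was 1.73 (SE 0.629, adjusted p = 0.0137 by DESeq2). Without CTRL replicate 2 the log2 fold change was again 2.24 and passed (SE 0.663, adjusted p = 0.00367 by edgeR's quasi-likelihood test). ALDH2 rose by 5.04 on the common-gene scale (adjusted p = 0.0266 by edgeR's quasi-likelihood test).

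ALDH1B1, on the plus strand of chromosome 9 (GRCh37, 38392699 to 38398658), is coded by a gene of 2 exons and is expressed in the crypts of the colon. Its TPM was 39.8, 32.9, 22.1 and 59.4 in the shALDH1A1 libraries and 13.4, 57.7, 5.38 and 2.77 in the CTRL libraries. As for ALDH2, the 3 CTRL libraries other than replicate 2 lay below every shALDH1A1 library. The log2 fold change of 1.10 did not pass (SE 0.97, adjusted p = 0.337 by edgeR's quasi-likelihood test), nor did the 1.5 found without CTRL replicate 2 (adjusted p = 0.0721 by edgeR's quasi-likelihood test). ALDH1B1 rose by 4.58 on the common-gene scale (adjusted p = 0.0136 by edgeR's quasi-likelihood test).

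ALDH4A1 and ALDH18A1, which work on opposite arms of proline metabolism, were low or absent in shALDH1A1 cells. ALDH4A1 oxidizes pyrroline-5-carboxylate, the breakdown product of proline, to glutamate in mitochondria. The gene (chromosome 1, minus strand, GRCh37, 19197924 to 19229218) had 0, 0, 3 and 0 counts for shALDH1A1 and 41, 8, 116 and 23 for CTRL. As TPM it stood at 0, 0, 2.54 and 0 against 7.24, 26.5, 13.2 and 4.71, so that every CTRL library was higher. ALDH4A1 fell by 3.70 on the log2 scale (SE 1.09, adjusted p = 0.0109 by edgeR's quasi-likelihood test). CTRL exceeded shALDH1A1 by 14.3 times, but with 3 counts in the lower group the 95% counting interval ran from 4.82 to 70.0. The call was lost without shALDH1A1 replicate 1, 2 or 4, at log2 fold changes of -2.92, -3.13 and -2.92 (adjusted p = 0.0735, 0.0504 and 0.0766 by edgeR's quasi-likelihood test). Without shALDH1A1 replicate 3, which held all 3 counts of the group, the gene was at 0 in the remaining shALDH1A1 libraries and passed (adjusted p = 0.00521 by edgeR's quasi-likelihood test). With the common genes as scale, the log2 fold change was -1.36 (adjusted p = 0.331 by edgeR's quasi-likelihood test) and the excess was 1.71 times. There it was 2.7 times without CTRL replicate 1, and without CTRL replicate 3 it turned to 0.918 times.

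ALDH18A1 makes pyrroline-5-carboxylate from glutamate and so opens the synthesis of proline. The gene (chromosome 10, minus strand, GRCh37, 97365698 to 97416468) had 0 counts in all 4 shALDH1A1 libraries and 71, 0, 257 and 43 in the CTRL libraries. With all 8 libraries, the filter on low counts left it out of the main test, since it had counts in too few of them. It passed as lower without that filter (adjusted p = 5.23e-05 by edgeR's quasi-likelihood test), without CTRL replicate 2 (adjusted p = 4.03e-05 by edgeR's quasi-likelihood test), with DESeq2 (adjusted p = 0.000127) and with limma on log2(TPM + 1) (adjusted p = 0.018). In each of these settings ALDH18A1 entered on its CTRL values alone, so these p-values are a description and not separate support. With 3 counts in the whole group taken as the floor, ALDH18A1 was at least 28.2-fold lower in shALDH1A1 cells with TMM factors, at least 17-fold lower without CTRL replicate 3, and at least 3.38-fold lower on the common-gene scale. On that scale the bound was 5.51-fold when CTRL replicate 1 was left out, and 1.45-fold when replicate 3 was. CTRL replicate 2 also had 0 counts, so the groups touch at 0 (exact two-sided permutation test of log2(TPM + 1), p = 0.143). Of its 10 transcripts, 7 had counts in CTRL libraries.

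ALDH3A2, the fatty aldehyde dehydrogenase of the endoplasmic reticulum, was separated in TPM but did not pass the count test. The gene lies on the plus strand of chromosome 17 (GRCh37, 19551449 to 19589073). Its counts were 0, 5, 8 and 0 for shALDH1A1 and 93, 6, 344 and 100 for CTRL. Its TPM was 0, 4.78, 6.23 and 0 against 13.4, 18.3, 32.5 and 17.5, with means of 2.75 ± 3.23 and 20.4 ± 8.34 (SD, n = 4 each; exact two-sided permutation test of log2(TPM + 1), p = 0.0286). The log2 fold change was -2.60 (SE 1.10, adjusted p = 0.064 by edgeR's quasi-likelihood test). ALDH3A2 passed as lower in 11 of 17 alternatives, among them without CTRL replicate 2 (adjusted p = 0.00075 by edgeR's quasi-likelihood test), and stood at -0.61 on the common-gene scale (adjusted p = 0.652 by edgeR's quasi-likelihood test). All 6 of its transcripts had counts in CTRL libraries and 1 had counts in shALDH1A1 libraries.

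ALDH7A1 and ALDH9A1 did not pass with TMM factors. ALDH7A1, which oxidizes the semialdehyde formed in lysine breakdown (chromosome 5, minus strand, GRCh37, 125866892 to 125931054), stood at 2.59, 2.79, 2.18 and 19.1 TPM in the shALDH1A1 libraries and at 10.1, 11.1, 10.6 and 5.38 TPM in the CTRL libraries. In each group replicate 4 lay apart from the other libraries, and the groups overlapped through shALDH1A1 replicate 4 alone. Its log2 fold change was -1.38 (SE 0.84, adjusted p = 0.171 by edgeR's quasi-likelihood test). ALDH9A1, which makes a precursor of carnitine (chromosome 1, minus strand, GRCh37, 165631453 to 165667799), stood at 6.89, 10.6, 6.5 and 29.1 TPM against 37.5, 12.7, 17.6 and 18.4 TPM. Its log2 fold change was -1.31 (SE 0.87, adjusted p = 0.206 by edgeR's quasi-likelihood test). With the common genes as scale, the values turned to 2.32 for ALDH7A1 and 2.35 for ALDH9A1 (adjusted p = 0.0759 and 0.0657 by edgeR's quasi-likelihood test). With DESeq2 both passed as lower at -2.11 and -2.27 (adjusted p = 0.0147 and 0.0149 by DESeq2), near the DESeq2 median of all tested genes, -2.20. They also passed as lower with median-of-ratios factors (adjusted p = 0.039 and 0.0297 by edgeR's quasi-likelihood test). Without CTRL replicate 2 the genes passed as lower at -1.87 and -2.15 (adjusted p = 0.0335 and 0.0115 by edgeR's quasi-likelihood test). Without that library both fell by less than the median of all tested genes, -2.82.

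By mean TPM, the order of the genes in the CTRL libraries was ALDH1A1, ALDH2 (57.8), ALDH1A3 (23.2), ALDH9A1 (21.6), ALDH3A2 (20.4), ALDH1B1 (19.8), ALDH4A1 (12.9), ALDH18A1 (12.5), ALDH7A1 (9.31) and ALDH1A2 (0.46). Stomach chief cell markers made up 3.2 to 36.2% of these libraries, so the order cannot be taken as that of HT29 cells alone. ALDH1A1 lay above every other member in each CTRL library, exceeding ALDH2 by 15.2, 2.66, 13.2 and 23.5 times in replicates 1 to 4. From ALDH2 to ALDH7A1 the ranges of neighbours overlapped, so the order of neighbours is not firm. Genes further apart in this run could be separate. ALDH2, ALDH9A1 and ALDH3A2 had at least 13.6, 12.7 and 13.4 TPM in every CTRL library, while ALDH7A1 had at most 11.1 TPM. ALDH1A2 lay below ALDH7A1 in each library. When CTRL replicate 2 was left out, the order after ALDH1A1 was ALDH9A1 (24.5), ALDH1A3 (24.4), ALDH2 (23.6), ALDH3A2 (21.2), ALDH18A1 (16.7), ALDH7A1 (8.71), ALDH4A1 (8.37), ALDH1B1 (7.2) and ALDH1A2 (0.613), so that the second place of ALDH2 rests on that library. In the shALDH1A1 libraries ALDH2 (214) led, followed by ALDH1B1 (38.6), ALDH1A3 (15.1), ALDH9A1 (13.3), ALDH7A1 (6.66), ALDH3A2 (2.75), ALDH1A1 (1.63), ALDH4A1 (0.635), ALDH1A2 (0.425) and ALDH18A1 (0). There the range of ALDH2, 139 to 267 TPM, lay above that of ALDH1B1, 22.1 to 59.4 TPM, and below ALDH1B1 the neighbouring ranges overlapped.

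The transcript make-up of ALDH2 differed between the groups. ALDH2 has 2 transcripts in the table, and NM_001204889.2 took 47.6, 46.8, 53.0 and 55.8% of the gene's counts in shALDH1A1 replicates 1 to 4. In CTRL replicates 1 to 4 this transcript took 16.4, 42.3, 10.4 and 5.2% (exact two-sided permutation test, p = 0.0286). The groups did not overlap, and CTRL replicate 2 came closest to the shALDH1A1 libraries. For ALDH1A3, NM_001293815.2 took 100% in the 3 shALDH1A1 libraries with counts and 40.0 to 100% in the CTRL libraries (exact two-sided permutation test, p = 0.143). For ALDH1B1, XM_011517802.2 took 36.9 to 100% in the shALDH1A1 libraries, 100% in CTRL replicate 2 and 0% in the other CTRL libraries (exact two-sided permutation test, p = 0.143). ALDH7A1 was counted on NM_001202404.2 alone in shALDH1A1 replicates 1, 2 and 4 and in CTRL replicate 2. In shALDH1A1 replicate 3 and the other CTRL libraries its counts were split 50% to 50% between NM_001182.5 and NM_001201377.2 (exact two-sided permutation test of the share of NM_001202404.2, p = 0.486). Many of these shares rest on few counts. CTRL replicate 2 had 6 counts of ALDH1A3, 17 of ALDH1B1 and 5 of ALDH7A1. A shALDH1A1 library had at most 17 counts of ALDH1A3 and 10 of ALDH7A1.

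**Figure D4:**
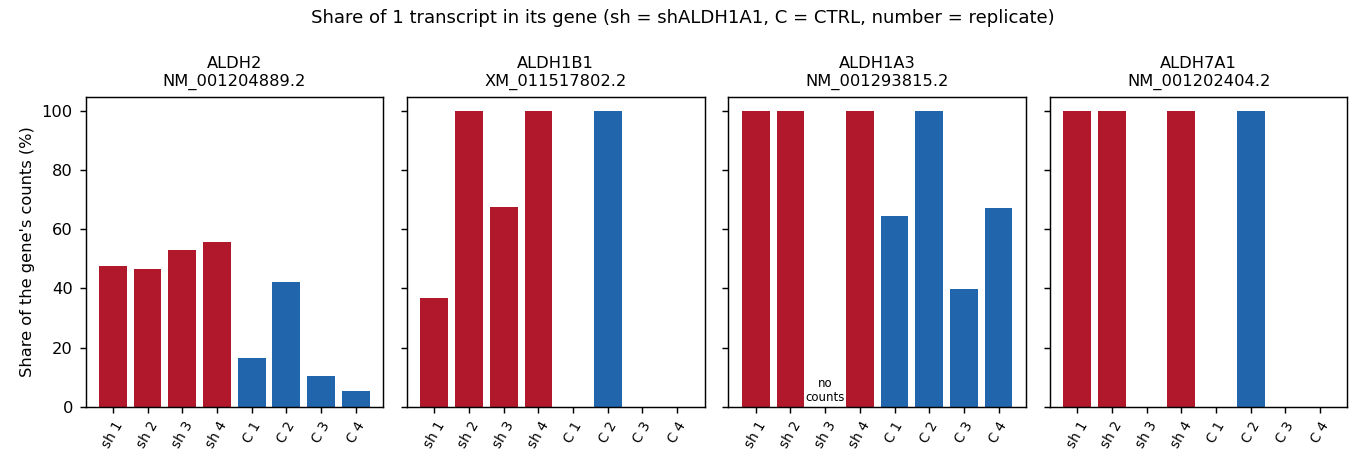
Share of 1 transcript in the counts of its gene, in percent, with 1 bar per library, shALDH1A1 in red and CTRL in blue. For ALDH2 the share is 46.8 to 55.8% with the knockdown and 5.2 to 42.3% without it. In all 4 genes CTRL replicate 2 holds the highest share among the CTRL libraries, on 6 counts for ALDH1A3, 17 for ALDH1B1 and 5 for ALDH7A1.

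The members differed among themselves in repeat content. Alu elements, the most common short repeats of the human genome, derive from the 7SL RNA gene, and bases of a coding transcript that align to the 7SL gene RN7SL2 were counted as 7SL-like. ALDH2 had 769 such bases in 10 stretches of its 9561-base transcript, ALDH7A1 had 240, ALDH1B1 had 146 and ALDH3A2 had 78. The other 6 members, ALDH1A1 among them, had 0. Over all genes, 27.8% of 17951 had more than 50 such bases. The summed TPM of the 4 members with 7SL-like sequence was 182, 308, 250 and 309 for shALDH1A1 and 69.5, 247, 73.4 and 39.3 for CTRL. That of the 6 members without it was 13.5, 29.9, 12.1 and 68.9 against 592, 486, 397 and 376. CTRL replicate 2 was thus in the shALDH1A1 range for the first set and in the CTRL range for the second. Most of the first sum in shALDH1A1 libraries was ALDH2 (mean 214 TPM), and most of the second in CTRL libraries was ALDH1A1 (mean 392 TPM). ALDH3A2 and ALDH7A1, also with such sequence, had lower mean TPM in the shALDH1A1 libraries (2.75 against 20.4 and 6.66 against 9.3). The means of ALDH2 and ALDH1B1 were higher there. Among all tested genes, the median log2 fold change was 0.69 for 3446 genes with such sequence, of which 464 fell and 151 rose. It was -2.56 for 4422 genes without it, of which 2142 fell and 48 rose. The part of 7SL-like sequence in the members' values was not tested.

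**Figure D5:**
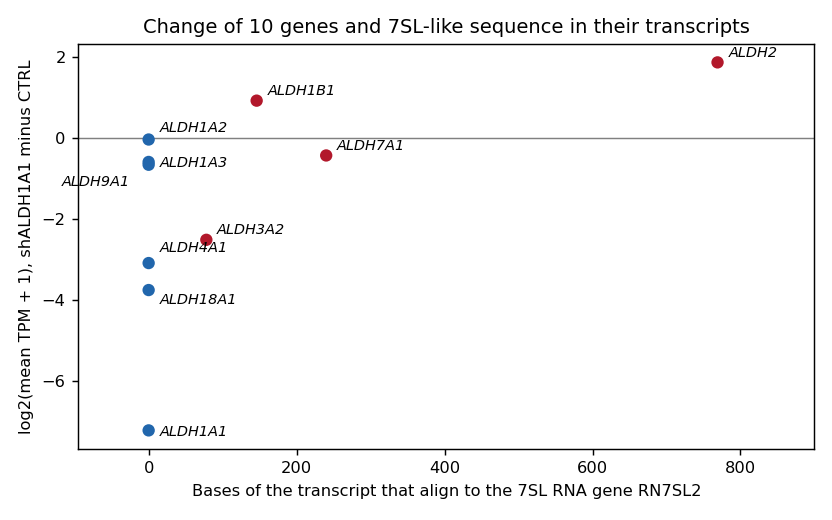
Difference between shALDH1A1 and CTRL in log2(mean TPM + 1), on the vertical axis, against the number of 7SL-like bases in the transcript, on the horizontal axis, with 1 point per gene and the 4 genes with such sequence in red. ALDH2, with 769 bases, has the highest difference, and ALDH1A1, with 0 bases, the lowest.

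Of the remaining 9 ALDH genes of the table, 5 were tested, and with TMM factors 0 passed by edgeR's quasi-likelihood test, while at an unadjusted p under 0.05 it gave 1 lower and 1 higher. On the common-gene scale 3 rose, at 5.73 for ALDH5A1, 4.31 for ALDH3B1 and 2.80 for ALDH16A1 (adjusted p = 0.0119, 0.0129 and 0.0405 by edgeR's quasi-likelihood test), beside the 40.8% of all tested genes. DESeq2 tested all 9 and called 3 lower and 2 higher, where 6917 of 14463 genes fell and 1367 rose. With limma 7 were tested, 2 called lower and 2 higher, where 4301 of 13997 genes fell and 1277 rose. The smallest p-values belonged to ALDH3A1, a cytosolic enzyme of cornea and stomach, with a log2 fold change of -2.49 (adjusted p = 0.0632 by edgeR's quasi-likelihood test), and ALDH5A1, which ends the breakdown of GABA, with 2.56 (adjusted p = 0.0699 by edgeR's quasi-likelihood test). The main values of ALDH3B1 and ALDH16A1 were 1.39 and -1.15, the latter the reverse of its sign on the common-gene scale. ALDH6A1, which oxidizes methylmalonate semialdehyde in valine breakdown, was singled out after its values were seen. Its TPM was 1737, 1613, 1345 and 1704 in the shALDH1A1 libraries and 25.6, 1919, 24.8 and 13.7 in the CTRL libraries, far above ALDH2 in every shALDH1A1 library and in CTRL replicate 2. Its transcript has 365 7SL-like bases, and at a log2 fold change of 2.12 it did not pass (adjusted p = 0.326 by edgeR's quasi-likelihood test). With CTRL replicate 2 left out, ALDH6A1 at 5.37 and ALDH5A1 at 2.55 passed as higher and ALDH3A1 at -3.60 as lower (adjusted p = 8.63e-06, 0.0035 and 0.000302 by edgeR's quasi-likelihood test).

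The pathways around the members were followed through lists of genes, whose counts stand beside the background of 33.0% lower and 2.6% higher with TMM factors and of 5.32% lower and 40.8% higher on the common-gene scale. Of 22 genes of retinoid metabolism and signaling, 8 were tested, 3 fell and 1 rose. LRAT, which stores retinol as esters, had 12, 17, 17 and 5 counts for shALDH1A1 and 0, 2, 4 and 4 for CTRL, and rose by 4.05 (SE 1.13, adjusted p = 0.00741 by edgeR's quasi-likelihood test). The receptors RXRB and RARA passed as lower at -3.40 and -2.70 with TMM factors but stood at -0.97 and 0.21 on the common-gene scale. There 0 of the 8 fell by edgeR's quasi-likelihood test (0 at an unadjusted p under 0.05) and 3 rose. Of 5 tested genes of ethanol and acetaldehyde metabolism, 4 fell: ACSS2, which makes acetyl-CoA from acetate and had 0 counts in the shALDH1A1 libraries against 148, 5, 486 and 79, its mitochondrial relative ACSS1, and the alcohol dehydrogenases ADH5 and ADH1B. On the common-gene scale 2 fell, and ADH5 turned to 0.18.

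Of 6 tested genes of proline and glutamate metabolism, 4 fell. PYCR1, which completes the synthesis of proline from the product of ALDH18A1, passed at -3.15. GLUL and GLUD1, which make glutamine and oxoglutarate from glutamate, passed at -4.42 and -2.93, and GLUD1 stood at 0.06 on the common-gene scale. There 0 fell by edgeR's quasi-likelihood test (1 at an unadjusted p under 0.05) and 1 rose. Of 5 tested genes of fatty aldehyde metabolism 4 fell (HACL1, PHYH, AGPS and FAR1), and on the common-gene scale, where AGPS turned to 0.13, 0 fell (0 at an unadjusted p under 0.05) and 1 rose. Of 5 tested genes of lysine and carnitine metabolism 0 passed by edgeR's quasi-likelihood test (1 lower at an unadjusted p under 0.05). DESeq2 called 2 lower and 1 higher of 8 tested, and limma 2 higher of 7 tested. TMLHE stood at -1.81, AASS at 3.97, DHTKD1 at 1.72 and PIPOX at 1.80 on the log2 scale. On the common-gene scale 3 of the 5 rose.

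Among 17 tested enzymes that clear other carbonyls, 10 fell with TMM factors, and 5 fell and 2 rose on the common-gene scale. The carbonyl reductase CBR1 had 0 counts for shALDH1A1 and 128, 2, 495 and 175 for CTRL. The glutathione transferase GSTA4, which conjugates lipid aldehydes, had 0 counts against 50, 7, 173 and 36. The reductases DCXR and AKR1C2 passed as lower on both scales, at -7.05 and -6.56 with TMM factors and at -4.47 and -3.98 with the common genes. By edgeR with TMM factors, 0 genes rose in the alcohol, proline, fatty aldehyde and carbonyl lists (0 at an unadjusted p under 0.05, and 0 with DESeq2 and with limma). The lists' medians were -1.39 for retinoid, -3.82 for alcohol, -3.04 for proline, -3.32 for fatty aldehyde, 1.72 for lysine and carnitine and -3.72 for carbonyl genes, beside -1.44 for all tested genes. Without CTRL replicate 2, where 60.4% of all tested genes fell and 17.3% rose by edgeR's quasi-likelihood test, 6 of 9 retinoid, 6 of 6 alcohol, 5 of 6 proline, 4 of 5 fatty aldehyde, 2 of 5 lysine and carnitine and 15 of 17 carbonyl genes fell, and 1 retinoid, 3 lysine and carnitine and 1 carbonyl gene rose.

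The genes whose level followed ALDH1A1 most closely over the 8 libraries were GOT2, a mitochondrial aspartate aminotransferase (Pearson's r = 0.992 on log2(CPM scaled by TMM + 1)), KCTD3, RNF6, ARMCX5 and DBP (r = 0.99 each). The 8 libraries fall into the study's groups, so these values describe a shared difference between the groups and shared library depth.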

How the data were processed

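RNA-seq of 4 shALDH1A1 and 4 CTRL HT29 libraries was analysed from 1 table. The authors deposited expected counts per transcript, not normalized (64.7% of non-zero values were not whole at a tolerance of 0.001), and TPM, which the authors scaled by length and library. The paper names CASAVA, FASTQC, HISAT with hg19 and RSEM. The submitters' processing notes name Bowtie2, BWA and GRCh38.p13. Such counts divide reads between close paralogs and transcripts by estimate.

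For each gene, the expected counts of its transcripts were added and rounded. The whole table was then fitted with edgeR 4.0.16 (filterByExpr at minimum count 10 and minimum total 15, TMM factors, two-sided quasi-likelihood F test, Benjamini-Hochberg over 7971 genes), which was also tested on simulated data. Alternatives were DESeq2 1.42.0, limma 3.58.1 on log2(TPM + 1) or log2(TPM + 0.1) with or without a minimum mean of 1 TPM, median-of-ratios factors, 30 common genes as library size, a table without stomach and MTRNR2L genes, no filter, the largest transcript, the threshold of the study's methods, a replicate block and each library left out. R 4.3.3 and scipy 1.17.1 were used. The common dispersion was 0.853, and depth per library is given in the report. Single values were compared by exact permutation tests. Confidence limits of counting are exact.

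Coordinates and sequences come from GENCODE transcripts lifted to GRCh37, and alignments from blastn 2.17.0 (e-value 1e-05) and Biopython 1.88. Named genes were all members, of each list at most 4 genes with the smallest p, and the 5 genes most correlated with ALDH1A1. Some genes that this rule names are not reported here. The members and lists were chosen with earlier results of these data known. The shRNA sequences and protein sequences were not used here.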

Additional observations from a re-analysis of the deposited data

Results flagged for a closer look

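In 4 of 19 groups of 4 libraries checked over the 10 genes, 1 library lay far from the other 3, where chance gives about 5% of groups. That share does not apply to ALDH1A2 and ALDH4A1, since a single value above 0 beside 3 libraries at 0 always stands out in this way. On log2(TPM + 1), shALDH1A1 replicate 3 stood at 1.43 for ALDH1A2 and at 1.82 for ALDH4A1, with the other shALDH1A1 libraries at 0, which for these genes are 2 and 3 counts. ALDH7A1 stood at 4.33 in shALDH1A1 replicate 4 against 1.67 to 1.92 in the others, on 10 counts, and at 2.67 in CTRL replicate 4 against 3.48 to 3.6 in the others.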

How the results depend on the processing

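ALDH1A1 remained lower in all 18 alternatives (log2 fold change -8.37 to -7.10 with 1 library left out), and its share of the family's counts in all 10 (-56.1 to -45.5 percentage points). With 1 library left out, 8 or 9 members were tested and 2 to 7 fell. The members that fell were 7 of 10 with DESeq2, 7 of 9 without CTRL replicate 2 and 6 of 8 with median-of-ratios factors. They were 5 of 10 without the filter, 4 of 9 or 10 with limma and 4 of 9 without shALDH1A1 replicate 3. On the common-gene scale, and at the threshold of the study's methods, 1 of 8 fell. The counts over all tested genes are given below, for comparison with these members. Those that rose numbered 0 to 1 with 1 library left out, 1 with DESeq2 and without CTRL replicate 2, and 2 on the common-gene scale.

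Over all 7971 tested genes, 2627 fell and 207 rose in the main analysis. The lower and higher genes were 6917 and 1367 of 14463 with DESeq2, and 4192 and 903 of 7971 with median-of-ratios factors. On the common-gene scale they were 424 and 3255 of 7971, and at the threshold of the study's methods 390 and 1 of 7971. Without the filter they were 6848 and 1213 of 17310, and with the largest transcript 1266 and 52 of 4841. With limma they were 4301 and 1277 of 13997 on log2(TPM + 1) and 4175 and 1155 of 13997 on log2(TPM + 0.1). Without the filter on TPM, limma gave 3985 and 1075 of 17335. Without stomach and MTRNR2L genes 702 of 8331 rose. With 1 library left out, 8221 to 10410 genes were tested, of which 2025 to 5996 fell and 52 to 1715 rose. The highest numbers were both without CTRL replicate 2, with 9925 tested. The numbers that rose were 55 of 8221, 52 of 8276 and 340 of 8582 without CTRL replicates 1, 3 and 4. The causes were not tested.

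ALDH1A3, ALDH7A1 and ALDH9A1 turned to 2.24, 2.32 and 2.35 on the common-gene scale, none past the threshold. The ratio for ALDH4A1 ran from 10.7 to 17 and the bound for ALDH18A1 from 17 to 34.7 with 1 CTRL library left out, and on the common-gene scale they were 1.71 and 3.38 (0.918 to 2.7, turned without CTRL replicate 3, and 1.45 to 5.51 with 1 CTRL library left out), alternatives chosen after seeing the data, as were the paralog sums, list counts, order of means and other ALDH genes without CTRL replicate 2.

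With the replicate block, 3 of 8 members fell, ALDH3A2 added, and 2508 of 7971 genes fell and 1030 rose. Deviations of same-numbered libraries correlated at -0.347, -0.0673, -0.176 and 0.146. These values show no pairing by number, but with so few and such unequal libraries they cannot exclude it. Members with under 30 counts in the shALDH1A1 group, ALDH1A1, ALDH1A2, ALDH3A2, ALDH4A1, ALDH7A1, ALDH9A1 and ALDH18A1, are limited by depth there.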
